A study of Homo sapiens with 23 samples.

Results

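The 10 genes described here are 3 EGR transcription factors (EGR1, EGR2 and EGR3), 3 Krüppel-like factors (KLF2, KLF4 and KLF6), the nuclear receptor NR4A1, the immediate early response genes IER2 and IER3, and MYC. They were taken by gene symbol from the deposited expression table, which held all 10 among its 35438 genes, and all 10 passed the filter on low values that left 15657 genes for testing. Poly(A) RNA had been sequenced from WM989 A6-G3, a human melanoma line with a BRAF mutation that was brought through single-cell bottlenecks, and from 7 resistant clones of it. The vemurafenib clones, numbered 7, 8 and 9, grew out under this inhibitor of mutant BRAF and stayed in 1 µM of it throughout. The dabrafenib/trametinib clones, numbered 10, 11, 12 and 13, were selected with a BRAF inhibitor and a MEK inhibitor together and stayed in both, dabrafenib at 250 nM and trametinib at 2.5 nM. Untreated WM989 A6-G3 cells had no drug in the medium. The genotype field of the labels reads WT for all samples and names no gene. Each clone grew from 1 colony, so a group of libraries stands for 1 founder. Resistance and the presence of drug cannot be told apart, nor can the drug arm and its drugs. There were 3 libraries per group, except clone 11 with 2, and 23 libraries in all.

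Immediate early genes are switched on within minutes of a growth factor, serum or stress signal, without new protein synthesis, and their mRNAs are short-lived. In many of them the ERK pathway, which mutant BRAF drives and these drugs block, acts through serum response factor (SRF) and its ETS partners, which bind CArG boxes near the gene's start. Stress kinases, calcium, cAMP acting through CREB at CRE sites, and actin dynamics acting through MRTF and SRF feed the same genes. The EGR, KLF and NR4A proteins then act as transcription factors on further genes. Because these genes answer quickly to the handling of a culture, the time from medium change to lysis bears on their levels, and that time is not given in the sources used here.

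Levels are given as TPM (the share of all transcripts in a library, a level per transcript length) after scaling between libraries, and fold changes stand on the log2(scaled TPM + 1) scale. TPM keeps no read depth, so the depth per library is unknown and the spread between libraries is the measure of error. Between 14415 and 24039 genes had a value above 0 per library. Clone 10 replicate 1 was the lowest and the next library had 18671, and no call for a member in clone 10 changed without that library. Summed markers of melanocytes were 21.7 to 466 TPM in the clone libraries, against 11962 to 12337 TPM in the untreated libraries, and 7 of 7 fell. Summed fibroblast markers were 2176 to 7965 TPM in the clone libraries, against 59.9 to 69.3 TPM in the untreated libraries, with 8 of 8 tested markers higher and THY1 under 1 TPM in every library. Endothelial markers summed to 1.45 to 5.43 TPM in clones and 1.53 to 1.66 TPM in untreated cells, with CDH5 and KDR under 1 TPM in every library. Keratinocyte markers summed to 62.7 to 354 TPM in clones and 59.0 to 69.0 TPM in untreated cells, with KRT5, EPCAM and CDH1 under 1 TPM in every library. KRT18 rose (1.13, adjusted p = 0.00111 by limma), with 0.93 when all replicate 3 libraries were left out. KRT8 (0.46) and KRT14 (0.25) were not called. Among immune markers CSF1R rose (1.45, adjusted p = 5.14e-06 by limma) and FCER1G fell (-1.12, adjusted p = 1.23e-05 by limma, -0.97 and no call as deposited). Mitochondrially encoded genes held 6.74% to 15.56% of TPM in the clone libraries, against 20.56% to 21.18% in the untreated libraries. Clone 8 replicate 3 had the lowest share and the lowest scaling factor (0.7467). The part of these marker and mitochondrial shifts in the results below was not tested. In bulk RNA, fewer cells of a type and less RNA per cell cannot be told apart.

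The promoters of EGR1 and EGR2 are shown because these genes rose in every clone and because their sequence carries the SRF and CRE sites through which such genes are classically induced. Each runs from 250 bases before to 50 bases after a RefSeq start (build GRCh38.p14), 5′ to 3′ on the gene's strand. Capitals mark CArG boxes and the CRE core TGACG, which reads CGTCA on the other strand. EGR1 lies at chr5:138465229-138465528 on the plus strand, and the EGR2 start shown, 1 of 3 in the table, at chr10:62816317-62816616 on the minus strand.
EGR1: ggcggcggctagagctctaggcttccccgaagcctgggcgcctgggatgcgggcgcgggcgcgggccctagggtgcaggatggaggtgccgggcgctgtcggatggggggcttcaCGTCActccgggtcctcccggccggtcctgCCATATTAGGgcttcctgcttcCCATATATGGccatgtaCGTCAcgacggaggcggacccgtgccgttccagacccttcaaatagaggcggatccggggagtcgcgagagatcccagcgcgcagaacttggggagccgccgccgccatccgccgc
EGR2: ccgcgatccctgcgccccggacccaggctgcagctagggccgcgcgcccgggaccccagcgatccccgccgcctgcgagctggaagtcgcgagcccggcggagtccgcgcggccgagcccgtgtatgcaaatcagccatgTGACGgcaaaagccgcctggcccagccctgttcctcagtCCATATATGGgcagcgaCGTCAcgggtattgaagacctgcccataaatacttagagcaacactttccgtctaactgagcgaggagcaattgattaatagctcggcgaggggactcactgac

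The EGR1 promoter held 2 CArG boxes, CCATATTAGG at bases -105 to -96 and CCATATATGG at -83 to -74, counted from the start. The EGR2 promoter held 1, CCATATATGG at -71 to -62. A CArG box was found in 1.29% of 35116 promoters of the same length. As these promoters are shown because they carry such sites, that share is background and no test of them. Both promoters also held 2 CRE cores, a motif found in 24.6% of promoters, and in both the nearer one lies a few bases past the last CArG box. These matches are letters in a window and not measured sites of binding.

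EGR1, the founding member of the EGR zinc-finger family and a standard readout of ERK signalling, was far higher in every clone than in untreated cells. It stood at 266, 223 and 255 TPM in the clone 7 libraries (replicates 1, 2 and 3), 326, 300.3 and 180.4 TPM in clone 8, and 275, 247 and 280.0 TPM in clone 9. In the dabrafenib/trametinib clones it stood at 167, 212 and 72.8 TPM in clone 10, 263 and 105 TPM in clone 11 (replicates 2 and 3), 309.8, 60.2 and 52.5 TPM in clone 12, and 187, 181 and 41.9 TPM in clone 13. Untreated cells held 8.24, 8.70 and 8.61 TPM. Every clone library was above every untreated library, and the lowest, clone 13 replicate 3, was still several times the highest untreated value. The mean of the 7 clones was 4.18 log2 units above untreated cells (SE 0.45, adjusted p = 1.65e-07 by limma), an 18.2-fold difference. Single contrasts ran from 3.40 in clone 12 to 4.82 in clone 9, and all 7 were called. The value for clone 12 was 2.59 without its replicate 1, that for clone 13 was 4.28 without its replicate 3, and that for clone 11 was 3.48 without replicate 2 and 4.79 without replicate 3.

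EGR2, which drives myelination in Schwann cells and is another SRF target, rose in all 7 clones and was listed under 1 TPM in every untreated library. Clone 7 held 26.7, 23.5 and 23.2 TPM, clone 8 held 25.2, 24.9 and 13.9 TPM, and clone 9 held 15.8, 13.9 and 17.7 TPM. Clone 10 held 2.68, 3.95 and 2.35 TPM, clone 11 held 7.67 and 4.47 TPM, clone 12 held 12.9, 2.76 and 3.18 TPM, and clone 13 held 7.95, 8.39 and 3.82 TPM. Untreated libraries held 0.619, 0.765 and 0.596 TPM. All 20 clone libraries were above all 3 untreated libraries. The mean of the clones differed from untreated cells by 2.61 (SE 0.28, adjusted p = 1.92e-07 by limma). All 7 contrasts were called, from 1.25 in clone 10 (SE 0.37) to 3.94 in clone 7 (SE 0.37). When all replicate 2 libraries were left out, the calls in clones 10 (1.13) and 11 (1.77) were lost. Without its replicate 1, clone 12 differed by 1.26 in place of 1.86.

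EGR3, the family member known as a target of NFAT and a partner of EGR2 in lymphocytes, ran the other way. Clone 7 held 11.7, 6.06 and 7.60 TPM, clone 8 held 5.63, 6.59 and 2.75 TPM, and clone 9 held 3.39, 1.74 and 3.12 TPM. Clone 10 held 3.33, 0.414 and 0.388 TPM, clone 11 held 3.12 and 1.11 TPM, clone 12 held 5.18, 0.876 and 0.365 TPM, and clone 13 held 0.847, 1.16 and 0.350 TPM. Untreated cells held 15.3, 18.5 and 18.6 TPM. Every clone library was below every untreated library, while replicate 1 stood far above the other libraries in clones 10 and 12. The clones were 2.44 log2 units below untreated cells on average (SE 0.37, adjusted p = 1.43e-05 by limma). EGR3 fell in 6 clones, from -1.68 in clone 8 to -3.39 in clone 13. The clone 8 call was lost with a pseudocount of 0.1 (-1.87, adjusted p = 0.052 by limma) and when all libraries of replicate 2 (-1.85) or of replicate 3 (-1.33) were left out. In clone 7 the difference was -1.004 and was not called (adjusted p = 0.10 by limma, SE 0.49). It was called when clone 12 replicate 1 was left out (adjusted p = 0.0444), which also moved the clone 12 value to -3.52 in place of -2.87.

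KLF2, a zinc-finger factor known for quiescence in endothelium and T cells and induced through MEK5, ERK5 and MEF2, rose in all 7 clones. Clone 7 held 50.1, 51.6 and 48.5 TPM, clone 8 held 40.1, 40.4 and 57.5 TPM, and clone 9 held 42.1, 50.7 and 43.4 TPM. Clone 10 held 36.3, 26.4 and 17.7 TPM, clone 11 held 85.5 and 26.4 TPM, clone 12 held 103, 19.8 and 16.4 TPM, and clone 13 held 76.4, 45.6 and 13.7 TPM. Untreated cells held 5.24, 4.08 and 3.21 TPM. No clone library overlapped the untreated range, and the highest and lowest clone libraries were both from the dabrafenib/trametinib arm. The clones averaged 2.99 above untreated cells (SE 0.44, adjusted p = 1.06e-05 by limma), with single contrasts from 2.39 in clone 10 to 3.32 in clone 7. Clone 12 differed by 1.90 in place of 2.71 without its replicate 1, clone 13 by 3.56 in place of 2.88 without its replicate 3, and clone 11 by 2.42 without replicate 2 and 4.08 without replicate 3.

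KLF4, a reprogramming factor that acts as activator or repressor, rose in 5 clones. It held 18.5 to 23.0 TPM in clone 7, 20.2 to 28.5 TPM in clone 8 and 19.6 to 24.4 TPM in clone 9. It held 5.33 to 7.98 TPM in clone 10, 4.63 and 9.26 TPM in clone 11, 23.6, 6.33 and 5.34 TPM in clone 12, and 12.1, 22.3 and 8.01 TPM in clone 13, against 3.17, 3.82 and 3.67 TPM in untreated cells. All clone libraries lay above the untreated ones, but clone 11 replicate 3 was close to them. The mean of the clones differed by 1.63 (SE 0.29, adjusted p = 9.97e-05 by limma). Clones 7, 8 and 9 differed by 2.24, 2.51 and 2.34, clone 13 by 1.62 and clone 12 by 1.203. Clones 10 (0.78, adjusted p = 0.104) and 11 (0.74, adjusted p = 0.183) were not called by limma. With TPM as deposited, clone 10 was called at 1.03. The clone 12 call rested on its replicate 1, and without that library the difference was 0.59 (adjusted p = 0.131 by limma).

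KLF6, a widely expressed family member, was called in none of the clones. It stood at 79.1, 75.1 and 88.0 TPM in clone 7, 84.2, 79.1 and 97.8 TPM in clone 8, and 52.0, 55.8 and 47.5 TPM in clone 9. Clone 10 held 35.9, 45.1 and 38.0 TPM, clone 11 held 91.5 and 64.2 TPM, clone 12 held 77.8, 34.8 and 37.9 TPM, and clone 13 held 52.9, 43.9 and 31.1 TPM. Untreated cells held 52.4, 47.9 and 48.9 TPM, so 11 clone libraries were above all untreated libraries and 8 were below all of them. The mean difference was 0.21, with a 95% interval from -0.15 to 0.58 (adjusted p = 0.317 by limma). Clone 8 differed by 0.79 and clone 7 by 0.69 with adjusted p under the threshold (0.00788 and 0.0195 by limma), both short of the log2 minimum of 1.

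NR4A1, an orphan nuclear receptor induced by calcium, cAMP and ERK signals, fell in all 7 clones. Clone 7 held 19.1, 14.2 and 13.8 TPM, clone 8 held 21.2, 21.0 and 17.3 TPM, and clone 9 held 15.9, 14.8 and 13.8 TPM. Clone 10 held 11.5, 8.62 and 8.72 TPM, clone 11 held 15.3 and 7.90 TPM, clone 12 held 16.0, 5.51 and 7.62 TPM, and clone 13 held 10.9, 11.1 and 9.09 TPM. Untreated cells held 40.2, 42.5 and 42.6 TPM. The groups did not overlap, and the highest clone library, clone 8 replicate 1, was well under the lowest untreated one. The mean of the clones was 1.67 log2 units lower (-1.67, SE 0.20, adjusted p = 5.68e-07 by limma). Clone 8 was nearest to untreated cells at -1.04 and clone 12 farthest at -2.12. Without its replicate 3, clone 8 differed by -0.95, under the log2 minimum of 1.

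IER2, a nuclear protein induced by serum and growth factors, rose in all 7 clones. It held 157 to 198 TPM in clone 7, 174 to 263 TPM in clone 8 and 155 to 183 TPM in clone 9. It held 99.5, 151 and 66.8 TPM in clone 10, 200.1 and 96.5 TPM in clone 11, 244, 62.8 and 56.9 TPM in clone 12, and 116, 91.5 and 43.2 TPM in clone 13, against 31.9, 29.8 and 30.0 TPM in untreated cells. No clone library reached the untreated range, and clone 13 replicate 3 came nearest. The mean of the clones differed by 2.06 (SE 0.33, adjusted p = 3.32e-05 by limma), from 1.31 in clone 13 to 2.71 in clone 8. Single libraries decided the 2 lowest calls: clone 12 fell short of the log2 minimum without its replicate 1 (0.95), and clone 13 lost its call without replicate 1 (1.02, adjusted p = 0.10) or replicate 2 (1.19, adjusted p = 0.0647 by limma). Leaving out all replicate 2 libraries also ended the clone 10 call (1.37), and clone 11 then differed by 1.61.

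IER3, a regulator of survival and ERK dephosphorylation that NF-κB and p53 also induce, was higher in every clone library than in untreated cells, by a smaller factor than EGR1 or IER2. It held 343 to 391 TPM in clone 7, 228 to 253 TPM in clone 8, 285 to 323 TPM in clone 9, and 212 to 288 TPM in clone 10. It held 337 and 261 TPM in clone 11, 299, 166 and 182 TPM in clone 12, and 183, 232 and 175 TPM in clone 13, against 154, 146 and 144 TPM in untreated cells. The groups did not overlap, and the margin was small in clones 12 and 13. The mean difference of 0.81 (SE 0.13, adjusted p = 3.53e-05 by limma) passed the p threshold and missed the log2 minimum of 1. Clones 7 (1.32) and 9 (1.03) were called, and clone 9 gave 0.98, no longer a call, without its replicate 2. Clone 11, at 0.9985, fell just short, and was called without its replicate 3 (1.18) or without untreated replicate 1 (1.03).

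MYC, the growth-promoting transcription factor whose transcription and protein stability ERK signalling raises, fell in all 7 clones. Clone 7 held 147, 138 and 131 TPM, clone 8 held 139, 138 and 94.7 TPM, and clone 9 held 97.7, 94.9 and 102 TPM. Clone 10 held 65.5, 66.4 and 78.9 TPM, clone 11 held 99.1 and 99.6 TPM, clone 12 held 87.3, 66.2 and 64.7 TPM, and clone 13 held 65.9, 146 and 89.5 TPM. Untreated cells held 306, 305 and 301 TPM. Every clone library was under the untreated range, and none reached 150 TPM. The clones were 1.64 log2 units lower on average (-1.64, SE 0.15, adjusted p = 2.2e-08 by limma), from -1.13 in clone 7 to -2.10 in clone 10.

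**Figure D1:**
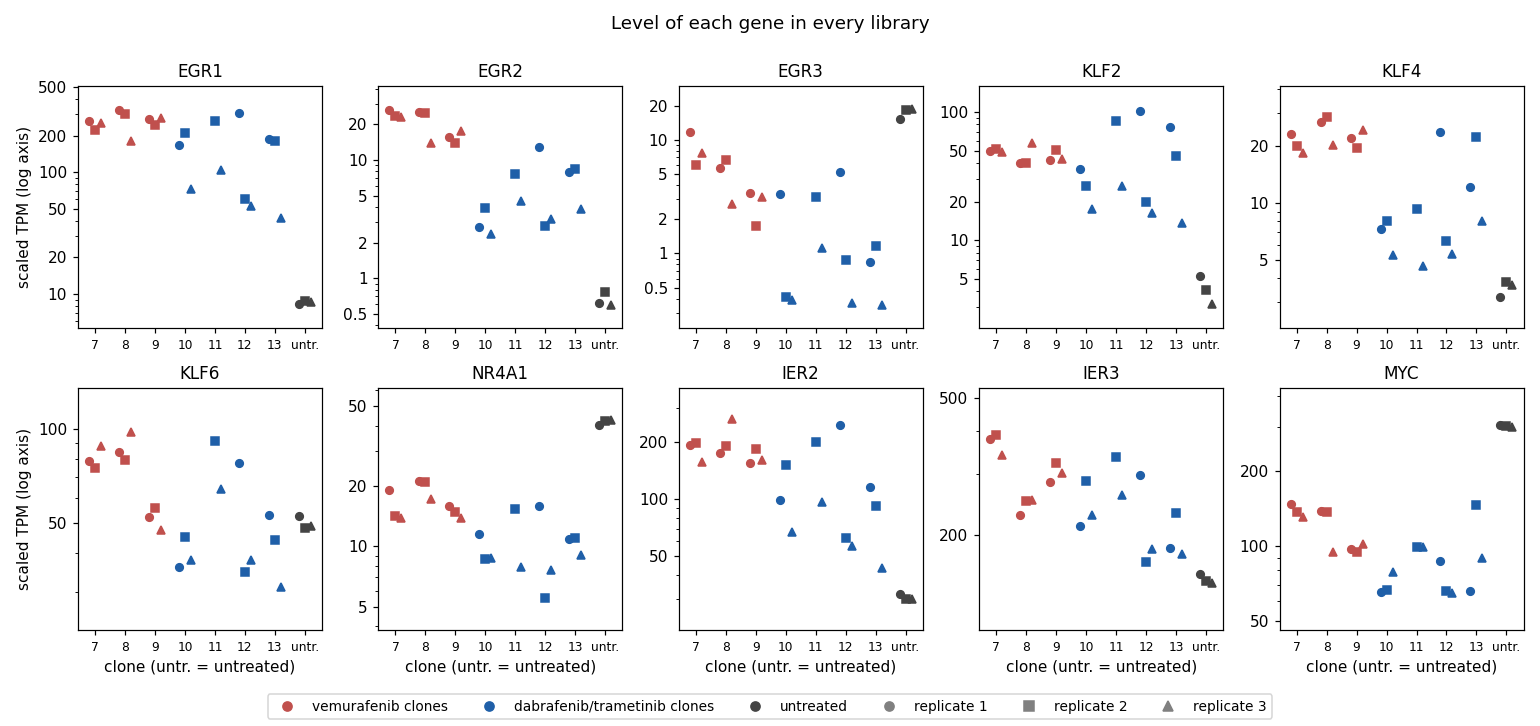
Scaled TPM of each gene in each library on log axes, 1 panel per gene, with the vemurafenib clones left, the dabrafenib/trametinib clones next and untreated cells right; each point is a library and its shape gives the replicate number. EGR1 in the clones lies between 41.9 and 326 TPM, against 8.24 to 8.70 TPM in untreated cells.

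Across the set, the mean of the clones was called higher than untreated cells for 5 of 10 members (EGR1, EGR2, KLF2, KLF4 and IER2) and lower for 3 (EGR3, NR4A1 and MYC). Over all genes tested, 10.9% were called higher and 7.92% lower. The median log2 difference was 1.22 for the members and -0.01 for all genes (0.14 with the values as deposited). EGR1, EGR2, KLF2 and IER2 were called higher in all 7 clones, as were 4.87% of genes, and NR4A1 and MYC were called lower in all 7, as were 4.2% of genes. Every clone library lay above every untreated library for 6 members (14.5% of genes) and below for 3 (13.3% of genes), with KLF6 the exception. The 7 clones share the same untreated libraries, so their contrasts are not independent.

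Clone 7 had 6 members called higher and 2 called lower, beside 11.1% and 8.49% of all genes. Clone 8 had 5 higher and 3 lower (11% and 9.3% of genes), and clone 9 had 6 higher and 3 lower (11.5% and 8.22% of genes). Clone 10 had 4 higher and 3 lower (11.8% and 10.6% of genes), as did clone 11 (11.5% and 9.67% of genes). Clone 12 had 5 higher and 3 lower (11.5% and 8.02% of genes), as did clone 13 (12.3% and 8.34% of genes). With the values as deposited, the calls over all genes shifted towards higher in all 7 clones, and the share of higher calls moved by over 10 percentage points in clones 10 to 13. They came to 2515 higher and 1173 lower for clone 10 (1845 and 1653 after scaling) and to 2041 and 1053 for clone 9 (1800 and 1287). Clone 11 then gave 2484 and 1036 (1803 and 1514 after scaling), clone 12 gave 2171 and 967 (1798 and 1256), and clone 13 gave 2325 and 996 (1926 and 1306). Leaving out replicate 1 of clone 12 took its higher calls among the members to 3.

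**Figure D2:**
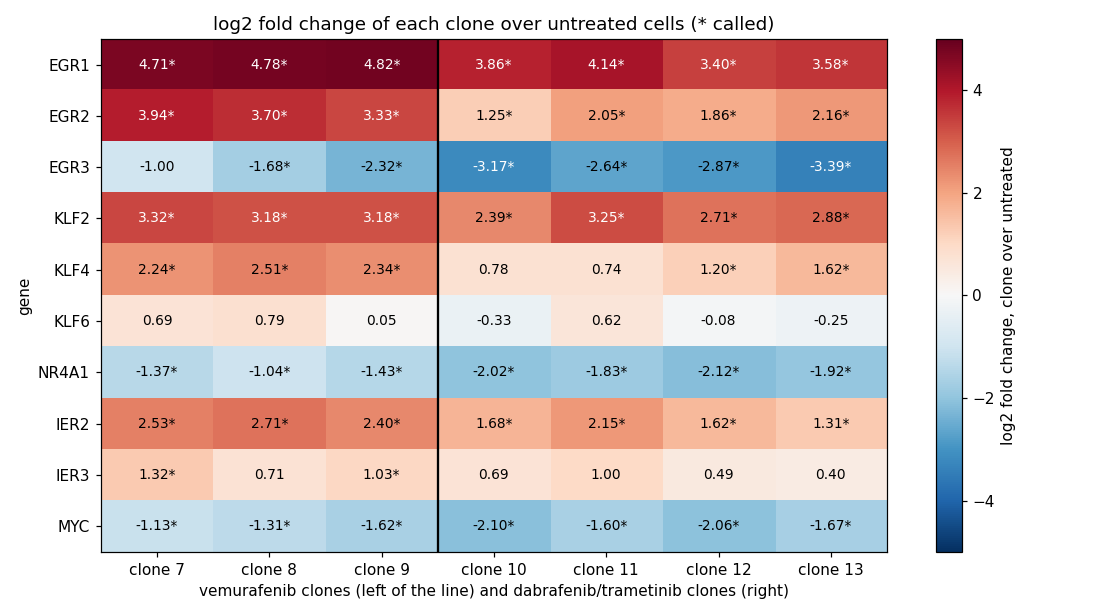
Heat map of the log2 fold change of each gene (rows) in each clone (columns) over untreated cells, with the value in each cell, a star where called and colour from blue (lower) to red (higher); the 3 vemurafenib clones stand left of the line and the 4 dabrafenib/trametinib clones right of it. EGR1, EGR2, KLF2 and IER2 lie above 1 in every clone, NR4A1 and MYC lie below -1 in every clone, and KLF6 lies between -0.33 and 0.79.

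The clones also differed among themselves. By an F test over the 7 clone means (6 degrees of freedom, limma, adjusted over all genes, with a range of at least 1), 5 of 10 members differed among clones, against 25.3% of all genes. These were EGR2 (range 2.69, adjusted p = 2.91e-05), EGR3 (range 2.39, adjusted p = 0.00394), KLF4 (range 1.77, adjusted p = 0.00226), KLF6 (range 1.12, adjusted p = 0.000965) and NR4A1 (range 1.08, adjusted p = 0.0119). IER3 and MYC passed the p threshold but spanned only 0.92 and 0.97. EGR1 spanned 1.41 and IER2 1.40 without passing (adjusted p = 0.163 and 0.0663 by limma), and KLF2 spanned 0.94 (adjusted p = 0.708). This count depended on single libraries and on the scaling: it was 9 without clone 12 replicate 1, and it was 3 with the values as deposited, where KLF6 spanned 0.97 and NR4A1 0.91. NR4A1 also fell short of the minimum without clone 12 replicate 2 or 3 (0.98 each). IER2 was called without clone 10 replicate 2 or clone 13 replicate 1, IER3 without clone 13 replicate 2, and MYC without clone 7 replicate 3 or clone 10 replicate 3.

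EGR2 carried the clearest differences between clones. Of its 21 clone pairs 12 were called, and these were the 12 that set a vemurafenib clone against a dabrafenib/trametinib clone. Clone 7 exceeded clone 10 by 2.69 (SE 0.37, adjusted p = 1.88e-05 by limma), and the smallest such gap, clone 9 over clone 13, was 1.18 (adjusted p = 0.0475). EGR3 had 6 called pairs, 4 of them with clone 7 as the higher clone and 2 with clone 8. KLF4 had 7, each with a vemurafenib clone above clone 10, 11 or 12. KLF6 had 3, with clone 7 above clone 10 (1.01) and clone 8 above clones 10 (1.12) and 13 (1.04). NR4A1 had 1 (clone 8 above clone 12, 1.08) and IER2 had 1 (clone 8 above clone 13, 1.40), while EGR1, KLF2, IER3 and MYC had 0. These pair tests take libraries and not founders as replicates, and the share of all genes called per pair was not counted. The comparison of the drug arms on clone means called no member. In the order of group means, most neighbours did not differ beyond their spread. Among 7 neighbouring pairs per gene, the step to untreated cells was called for EGR1, EGR2, KLF2, NR4A1, IER2 and MYC. The only other called step was the EGR2 gap between clones 9 and 13.

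Set by drug arm, with each clone's mean as 1 value, all 10 members were higher on average in the 3 vemurafenib clones than in the 4 dabrafenib/trametinib clones, and none was called by limma (0.0192% of genes were called higher and 0% lower). The difference was largest for EGR2 (1.83, SE 0.25, adjusted p = 0.151 by limma). Its clone means were taken on the log2 scale and turned back to TPM. They ran from 15.7 to 24.4 TPM in the vemurafenib clones and from 2.94 to 6.40 TPM in the others. EGR3 differed by 1.35, KLF4 by 1.28 and EGR1 by 1.02, while NR4A1 differed by 0.69 and IER2 by 0.86. Clone means did not overlap between arms for these 6 genes, all higher in the vemurafenib clones, and 7.66% of all genes showed that pattern (6.7% showed the reverse). MYC differed by 0.50, KLF6 by 0.52, KLF2 by 0.42 and IER3 by 0.38. How many of all genes were higher on average in the vemurafenib clones was not counted. Several members also varied together between libraries, so the 10 are not independent. Adjusted p ran from 0.151 to 0.418 over the members. Unadjusted p was under 0.05 for 7 members and for 2275 genes. The EGR1 difference was 0.53 when all replicate 3 libraries were left out, and that of IER2 was 0.44.

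**Figure D3:**
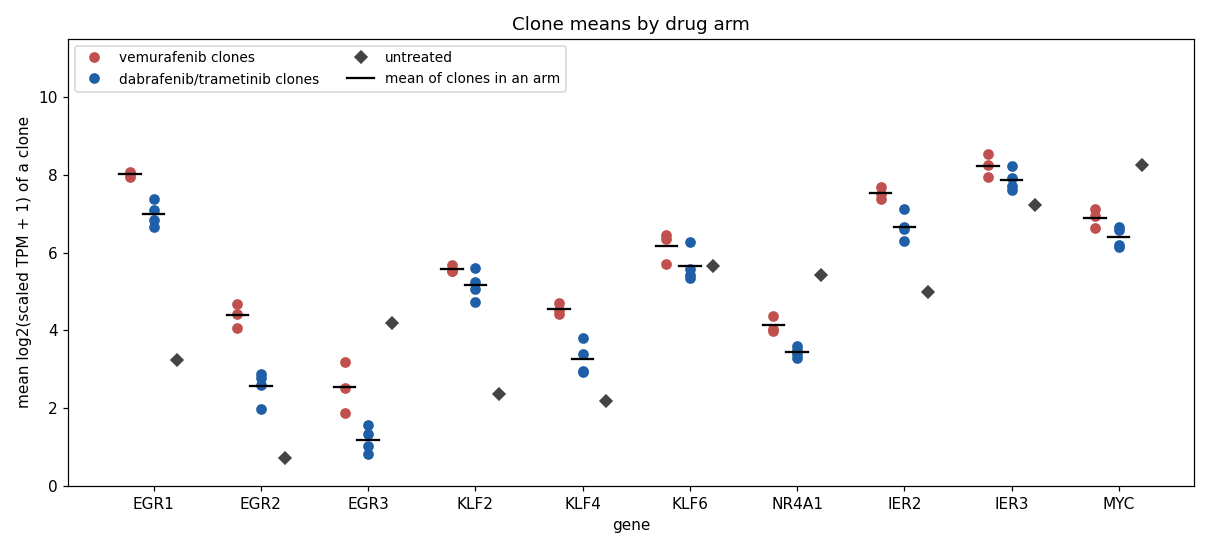
Mean log2(scaled TPM + 1) of each clone for each gene, with vemurafenib clones left, dabrafenib/trametinib clones in the middle and untreated cells right; points are clones, diamonds the untreated mean and bars the mean of an arm. The bar of the vemurafenib clones is the higher one for all 10 genes, at 4.39 against 2.56 for EGR2.

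Libraries of the same clone were uneven in these genes, most of all in clone 12. In clone 12, replicate 1 was the highest library for all 10 members and for 23 of 28 other immediate early genes, against 37.8% of all genes tested. With 1 TPM added to every value, the members' median ratio of highest to lowest library was 3.79 there, against 1.22 for all genes. Without that addition EGR3 spanned 14.2-fold, KLF2 6.24-fold and EGR1 5.90-fold, while MYC spanned 1.35-fold. In clone 13, replicate 3 was the lowest library for 9 of 10 members and 22 of 28 other immediate early genes, against 31.1% of all genes, and in clone 11 replicate 2 was the higher for 9 of 10 members (49.4% of all genes). Heat shock genes, which report on a different stress, had clone 12 replicate 1 highest in 5 of 10 and clone 13 replicate 3 lowest in 0 of 10. In clone 13 they had replicate 1, the highest library for EGR1, highest in 7 of 10 (33.8% of all genes). Their median ratio there, again with 1 TPM added, was 1.602 against 1.27 for all genes.

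With 1 TPM added to every value, the members' median ratio of highest to lowest library was 1.18 in clone 7, 1.44 in clone 8 and 1.17 in clone 9. It was 1.45 in clone 10, 1.83 in clone 11 and 2.07 in clone 13, and 1.08 in untreated cells. Over the 20 clone libraries, deviations of EGR1 from its clone's mean followed those of EGR2 (Pearson r = 0.93), KLF4 (r = 0.91), KLF2 (r = 0.89) and IER2 (r = 0.88), and those of MYC least (r = 0.29). Without clone 12 these were 0.90, 0.84, 0.80, 0.78 and 0.10 over 17 libraries. These points share their clone means and are given as a description. What set these libraries apart was not tested.

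**Figure D4:**
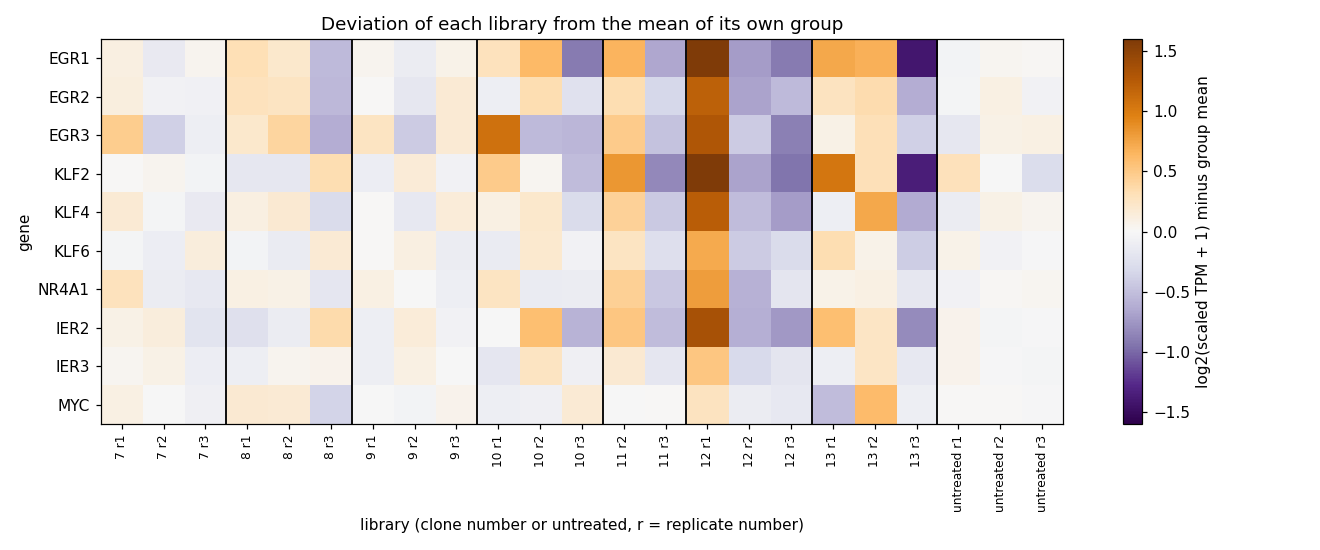
Heat map of the deviation of each library (columns, by clone and replicate number, untreated cells right) from the mean of its group for each gene (rows), in log2 units from purple (below) to orange (above). Clone 12 replicate 1 lies above its group's mean for all 10 genes, with a median of 1.22, and clone 13 replicate 3 lies below for all 10, with a median of -0.51.

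By replicate number, replicate 3 was the lowest library in 5 of 7 clones for EGR1, EGR2, EGR3, KLF2, NR4A1 and IER2, in 6 for KLF4 and in 3 for KLF6, IER3 and MYC. EGR1 had a median of 271 TPM in the 6 replicate 1 clone libraries, 223 TPM in the 7 replicate 2 libraries and 105 TPM in the 7 replicate 3 libraries, with overlapping ranges. An F test of replicate number within groups (2 degrees of freedom, limma) called no gene (0%). Unadjusted p was under 0.05 for 895 genes and for 4 members (EGR1, EGR3, KLF2 and NR4A1), and the adjusted p of the members ran from 0.837 to 0.924. The labels do not say what a replicate number marks.

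The genes most like each member, over 23 libraries and 11234 genes with a mean log2 level of at least 2, were chosen by Pearson r as a description. In level, EGR1 was most like DUSP1 (r = 0.98), a MAP kinase phosphatase, and ZFP36 (r = 0.97), which destabilises mRNAs. KLF2 and IER2 were most like DUSP1 and JUNB. EGR2 was most like KLHL4 and RAB27B (r = 0.94 each), IER3 like ID2 and DUSP5, and MYC like SPRY2, a feedback inhibitor of receptor signalling, and SMARCD2 (r = 0.95 each). EGR3 was most like SOCS6 and MRRF, KLF4 like C17orf97 and C15orf65, KLF6 like ZNF408 and TMEM50A, and NR4A1 like EMP1 and ADCK3. In deviations from group means, EGR1 went with FOSB and ZFP36, EGR2 with MCL1 and CCNL1, KLF2 with NR4A2 and DUSP1, KLF4 with CXCL3 and ATF3, KLF6 with HES1 and PER1, NR4A1 with ATF3 and FAM185A, and IER2 with JUNB and UGT2B7. IER3 went with PPP1R15A and DUSP5, EGR3 with UBE2E2 and PDE3A, and MYC with PYGB and UBAP1. For the members that rose or fell, the likeness in levels takes in the step between clones and untreated cells.

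Of 28 tested immediate early genes other than the members, 16 rose in the mean of the clones and 3 fell (background 10.9% and 7.92%), with a median log2 difference of 1.26 against -0.01 for all genes. JUN, a subunit of the AP-1 transcription factor, rose by 4.25 (adjusted p = 1.13e-09 by limma) and averaged 106 to 187 TPM in the clones against 5.51 TPM in untreated cells. GADD45B, a stress sensor, rose by 3.82, DUSP1 by 3.61 and ZFP36 by 3.42. NR4A3, a relative of NR4A1, differed by -1.69, SGK1, a serum-induced kinase, by -1.51 and IER5 by -1.04. Of the 2 NR4A relatives, NR4A2 was not called (-0.67, adjusted p = 0.0916 by limma). FOS (2.00) and FOSB (2.83) rose in the mean of the clones, and each was called in 4 of 7 clones.

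KLF10, a TGF-beta-induced family member counted among the 28 immediate early genes, rose by 1.82 and was called in 7 of 7 clones. Among 12 further KLF and SP genes tested, 1 rose (KLF7, at 1.76) and 2 fell (KLF5 at -1.49 and KLF15 at -3.10), with a median of -0.14. Of all genes tested, 10.9% were called higher and 7.92% lower. The KLF5 call was lost with a pseudocount of 5 (-0.53). Of 17 inducers and corepressors of these genes, 2 rose. MYOCD, an SRF coactivator of smooth muscle, differed by 2.66 and MAPK7, which encodes ERK5, by 1.03. The MAPK7 call was lost without untreated replicate 1 (0.99), without all replicate 1 libraries (0.95) and with a pseudocount of 5 (0.83). NAB1 (-0.84) and NAB2 (-0.66), which bind EGR proteins and repress their activity, were under the log2 minimum. The other 15 of this list were not called, and the list's median was -0.07.

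Of 15 genes that report ERK output, 8 fell and 2 rose (7.92% and 10.9% of all genes), with a median of -1.04. ETV4, an ETS factor, differed by -4.15, SPRY2 by -3.51, DUSP4, an ERK phosphatase, by -3.43 and SPRY4 by -3.00. EPHA2, an ephrin receptor, rose by 2.17 and DUSP5, a nuclear ERK phosphatase, by 1.53. DUSP6, another ERK phosphatase, was not called (-0.32, adjusted p = 0.476 by limma).

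In the MYC network, 1 of 12 tested genes rose and 1 fell, with a median of -0.11. Counts in this paragraph stand beside 10.9% of all genes called higher and 7.92% called lower, and lie near those shares. PIM1, a kinase that cooperates with MYC, differed by 3.67, and MXI1, which competes with MYC for MAX, by -3.44. MAX itself was not called (-0.06, adjusted p = 0.766 by limma). Of 20 MYC target genes, 1 rose and 2 fell, and the median was -0.40. LDHA, lactate dehydrogenase, differed by 1.31, POLR1B, a subunit of RNA polymerase I, by -1.30 and ODC1, ornithine decarboxylase, by -1.17. The ODC1 call was lost with the values as deposited (-0.99). Of 10 heat shock genes, 1 rose (HSPB1, 1.04) and none fell, with a median of 0.09. The HSPB1 value was under the log2 minimum without clone 8 replicate 3, untreated replicate 2 or untreated replicate 3, and without all libraries of replicate 2 or 3, with 0.95 the lowest value.

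Promoters of 7 of the 10 members were used, matched by symbol in the RefSeq table. EGR3 and MYC, which both fell, lie on a chromosome whose member promoters were left out, and none was used for IER3. Beside the CArG boxes of EGR1 and EGR2, no CArG box was found in the promoters of KLF2, KLF4, KLF6, NR4A1 and IER2. CRE cores were found 2 times in KLF4 and 1 time in IER2. The EGR site GCGNGGGCG, found in 9.43% of promoters, was present 1 time in EGR1, KLF4 and KLF6, 2 times in KLF2 and 1 time at the second EGR2 start. The GC box GGGCGG, found in 45% of promoters, was present 6 times in KLF2, 4 times in KLF4, IER2 and the second EGR2 start, 2 times in KLF6 and the third EGR2 start, and 1 time at the second NR4A1 start. It overlaps the EGR site by shared letters in KLF2, KLF4 and KLF6. Also searched were the full CRE TGACGTCA (1.85% of promoters), the AP-1 site TGANTCA (7.71%), the ETS site CCGGAA (17.2%), TATAAA (11.5%), CACGTG (7.26%) and the NR4A1 site AAAGGTCA (1.22%), on both strands. The full CRE, the AP-1 site, TATAAA and the NR4A1 site had 0 matches in these promoters. An ETS site was found in NR4A1 and IER2, and CACGTG in KLF4, KLF6 and the second EGR2 start. A window without a motif says nothing of a factor's binding elsewhere.

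**Figure D5:**
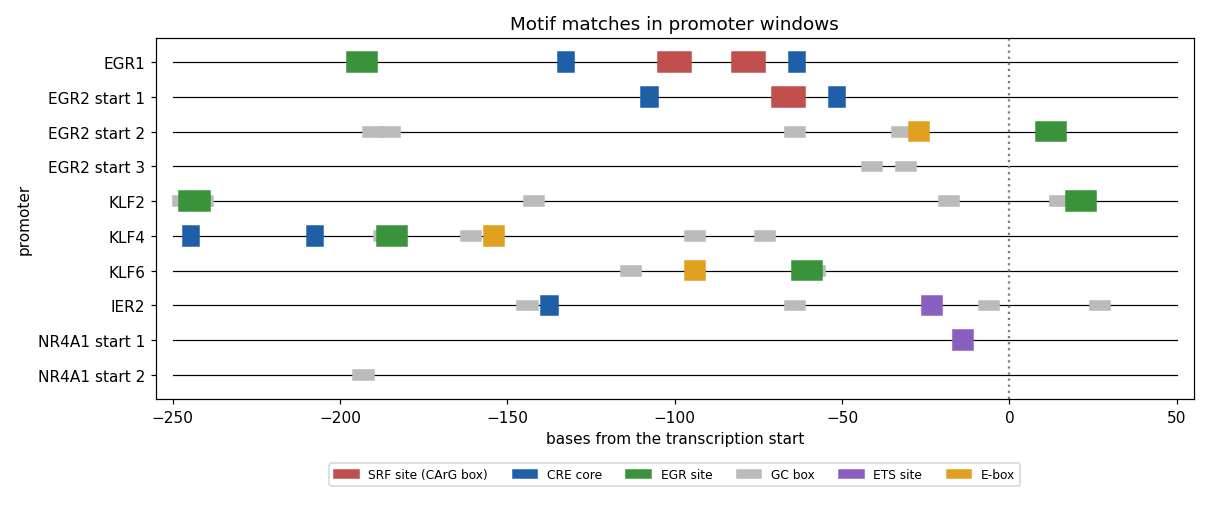
Motif positions in the promoters of 7 genes, in bases from the start, from 250 before to 50 after; each row is 1 start and marks are motif matches on either strand. CArG boxes are seen in EGR1 (2) and in the first EGR2 start (1), within 105 bases of the start.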

How the data were processed

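Poly(A) RNA of 23 libraries was measured by paired-end sequencing after the samples had been put in random order for extraction, per the labels' protocols. The deposited table gives 1 value per gene and library. It is named as counts, but each column sums to 1000000, so the deposited values were read here as TPM. Per the submitters' processing notes, kallisto and hg19 were used, both without a version. Annotation, summing to genes and filters of the authors were not given in the sources used here. The kit is not described as strand-specific, so reads of a gene and of an antisense partner cannot be told apart. TPM keeps no depth, so no counting interval or floor is given.

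Libraries were put on a common scale with trimmed means of log ratios (30% of ratios and 5% of levels trimmed, over 10822 genes with TPM of at least 1 in every library, factors 0.7467 to 1.149). Genes with TPM of at least 1 in 2 libraries were tested, 15657 in all, as log2(scaled TPM + 1), which understates changes of low genes. One limma fit (limma 3.58.1, R 4.3.3, lmFit and eBayes with trend) held 8 groups. A call needed p under 0.05 after Benjamini-Hochberg adjustment across every gene tested, and an absolute log2 change of at least 1. Drug arms were compared on clone means. The fit was tested on simulated data. The count test written down at first was replaced by limma because the values are TPM. What separated the libraries that the labels name biological replicates is not stated, and the p-values may reflect technical spread.

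The members and gene lists were chosen with earlier results of these data known. All members are named, with up to 4 called genes of each list by size of change and, for each member, the 2 likest genes in levels and in deviations. Called melanocyte and fibroblast markers are given as sums and counts, not by name. FOS, FOSB, NR4A2, NR4A3, SGK1, IER5, KLF10, EPHA2, DUSP5, NAB1, NAB2, DUSP6 and MAX were named after their values were seen. Promoter sequences are from RefSeq (GRCh38.p14) and were matched by symbol. Alternatives were other pseudocounts, filters and scalings, library weights, a replicate block, and leaving out libraries. The summed level of the immune markers is not reported here.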

Additional observations from a re-analysis of the deposited data

Results flagged for a closer look

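The effect against untreated cells differed among 7 clones for 5 members (25.3% of genes), by limma's F test with p adjusted over all genes. EGR2 gave 2.91e-05, with a clone range of 2.69 log2 units. KLF6 gave 0.000965 with clones on both sides of the untreated level. KLF4 gave 0.00226, EGR3 gave 0.00394 and NR4A1 gave 0.0119. In EGR2 the 3 vemurafenib clones stood above the 4 dabrafenib/trametinib clones, and for EGR3, KLF4 and NR4A1 the clone means of the arms did not overlap either. Of all genes, 7.66% had every vemurafenib clone mean above the others and 6.7% had the reverse. The arm comparison itself called none of them.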

How the results depend on the processing

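The members called in the mean of the clones were 5 higher and 3 lower under every alternative run, and the arm comparison called 0 under each. Of 3480 recomputed member values, 3402 kept their direction and side of the threshold, 41 lost a call, 28 gained one and 9 changed sign. Of 1049 values of list genes, 1035 were kept and 14 lost a call. With a pseudocount of 5, the members called higher in clone 12 were 3 in place of 5. Leaving out libraries gave 3 to 5 higher calls in clones 12 and 13, 2 to 4 in clone 10, 1 to 5 in clone 11, and 1 to 3 lower calls in clone 8. The members that differed among clones were 3 with TPM as deposited, and 1 to 9 when libraries were left out, including all libraries of 1 replicate number, which was added after seeing the data. The cause was not tested. The changes of sign were all in values that were not called. When libraries were left out, KLF6 in clone 9 ran from -0.027 to 0.11 (-0.00098 without clone 9 replicate 2) and KLF6 in clone 12 from -0.44 to 0.13. The KLF6 value in clone 12 was 0.12 as deposited and 0.17 with library weights, 0.067 without clone 12 replicate 3, 0.10 without replicate 2 and 0.056 without replicate 3. KLF2 between the arms ran from -0.18 to 0.86. A pseudocount of 5 also ended the EGR2 calls in clones 10 (0.49), 11 (0.95) and 12 (0.88). Over all genes tested, libraries of the same number deviated together about as little as others, though replicate 3 was low for several members. For same-numbered libraries r ran from -0.622 to 0.418 over 77 pairs (median 0.014), and 28 were over 0.1. For different numbers it ran from -0.574 to 0.715 over 154 pairs (median -0.009), and 47 were over 0.1. Of 23 libraries, 9 correlated best with their own number. With the replicate number as a block, the mean of the clones gave 2945 calls against 2939, EGR1 was 4.21, and IER3 in clone 11 and IER2 among clones were called.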
